A study of Arabidopsis thaliana with 4 samples.

Results

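The transcripts described here are those of the plastid and mitochondrial genomes of *Arabidopsis thaliana* in 4 root RNA-seq libraries. Every locus whose identifier begins with ATCG (plastid) or ATMG (mitochondrial) was taken, which gave 144 of the 23425 loci in the libraries, 77 from the plastid and 67 from the mitochondrion. The roots came from 8-day-old seedlings, and 1 library was sequenced for each condition, in wild type (WT-Mock, WT-NAA) and in the mutant (*arf7*-Mock, *arf7*-NAA). WT stands for Col-0, and *arf7* for the T-DNA insertion line Salk_040394 in the gene of the auxin response factor ARF7. NAA is naphthalene acetic acid, a synthetic auxin, given at 10 μM for 4 h, and Mock seedlings had no NAA. Dose and time were taken from the methods, since the sample labels state neither. The labels describe growth in darkness, whereas the methods describe a photoperiod. As there are no replicate libraries, no difference below has a replicate check, and each test compares the pair of libraries rather than the conditions.

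Plastids and mitochondria keep small genomes of bacterial origin. The plastid genome codes for subunits of the photosystems, the cytochrome b6f complex, the ATP synthase, the NDH complex, the large subunit of Rubisco, ribosomal proteins, rRNAs and tRNAs. It is transcribed by a bacterial-type RNA polymerase, whose core subunits are the plastid genes *rpoA*, *rpoB*, *rpoC1* and *rpoC2*, and by phage-type polymerases encoded in the nucleus. Root plastids are largely non-green, and the plastid genes of photosynthesis are known to be expressed far less in roots than in leaves. The mitochondrial genome codes for subunits of the respiratory chain and the ATP synthase, for cytochrome c maturation factors, ribosomal proteins and rRNAs, and it is transcribed by phage-type polymerases.

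The totals of uniquely assigned reads differed between the libraries by at most 1.08-fold. The median plastid locus had 8 to 11 reads per library and the median mitochondrial locus 5 to 7, compared with 49 to 54 for the median nuclear locus. Of the 77 plastid loci, 66 to 71 had reads in a library and 35 to 41 had at least 10, and of the 67 mitochondrial loci 56 to 60 had reads and 20 to 27 had at least 10. Of *ARF7* (AT5G20730) itself there were 6 reads for WT-Mock, 12 for WT-NAA, 8 for *arf7*-Mock and 3 for *arf7*-NAA, which does not allow a check of the genotype labels. All 8 root markers had reads in every library. Reads were also summed over a list of 20 nuclear genes of green tissue (Rubisco small subunits, light-harvesting and photosystem proteins). The sum was 205 RPM (reads scaled to library size) for WT-Mock, 146 for WT-NAA, 67.4 for *arf7*-Mock and 243 for *arf7*-NAA. It was lowest in *arf7*-Mock and highest in *arf7*-NAA, but its members differed. *LHCB1.3* had 317, 238, 81 and 530 reads in the same order, most in *arf7*-NAA. *LHCA4* had 342, 204, 69 and 119, most in WT-Mock.

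Only part of each organelle genome could be counted. In the RefSeq annotation of the TAIR10.1 plastid genome, 10 protein-coding, 7 rRNA and 14 tRNA genes have a sequence that recurs in the plastid genome, and none of these genes was listed in the libraries. Of the 75 protein-coding genes that occur singly, 73 were listed, whereas 3 of 23 such tRNA genes were. The plastid rRNAs therefore have no value here. Ends of 72 plastid loci equalled those of RefSeq at both sides. *rps12*, whose product is a protein of the small ribosomal subunit, has a pair of identical copies of 795 bases. The copy ATCG00905 was listed with 1, 1, 2 and 2 reads and ATCG01230 with 37, 30, 24 and 21 reads in WT-Mock, WT-NAA, *arf7*-Mock and lastly *arf7*-NAA, so reads of these copies could not be told apart and their values are uncertain.

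Reads were concentrated in a few stretches of the plastid genome, namely the *rpl23* unit, a ribosomal protein and polymerase cluster, the *atpB* and *atpE* pair, and the stretch from *ndhA* to *ycf1*. These loci are all on the minus strand, as are 35 of the other 62 plastid loci. This set of 15 loci was chosen after the values were seen and is given as a description. Their mean RPKM over the 4 libraries (reads divided by transcript length in kilobases and by library size) ranged from 9.74 to 279 with a median of 64.6, whereas the other 62 plastid loci ranged from 0.175 to 14.8 with a median of 1.40. The sense strand of the 15 loci was richer in A, with a median of 37.7% against 29.3% in the other 62. The percent of A and the runs below were taken over the whole gene span with its introns, whereas RPKM uses the transcript length. The span of *rpl16* is 1464 bases and its transcript 408. Its run begins at base 189 of the span, and whether it lies in the counted transcript was not checked. A run of at least 10 A in the sense strand was found in 4 of the 15 loci and in 5 of the other 62, that is, in 9 of all 77 plastid loci (11.7%). These runs are shown because they lie in loci at either end of the range of levels. The windows below are of 30 bases, sense strand, from the RefSeq TAIR10.1 plastid genome, with the run of A in capitals. The first 4 lie in loci with a high RPKM and the last 2 in loci with a low one:
rpl16: tagcaactgAAAAAAAAAAAgaataaagaa
rpoA: aacctaagAAAAAAAAAAAAAAcaaaagaa
atpB: tcgatacgtgAAAAAAAAAAcctgggacgt
ycf1: aaatggagAAAAAAAAAAAAAtactcttta
rpoC2: gagtagagAAAAAAAAAAAAAggattgaac
accD: tttttgatAAAAAAAAAAAAAtttttgaga
The windows are at chrC:82444-82473 for *rpl16*, chrC:78087-78116 for *rpoA*, chrC:54091-54120 for *atpB*, chrC:125859-125888 for *ycf1* and chrC:17917-17946 for *rpoC2*, all on the minus strand, and at chrC:57364-57393 on the plus strand for *accD*. The mean RPKM was 279 for *rpl16*, 61.6 for *rpoA*, 34.7 for *atpB* and 29.6 for *ycf1*, compared with 0.742 for *rpoC2* and 1.2 for *accD*. Runs of 13 A thus occurred in *ycf1* and also in the low loci *rpoC2* and *accD*. Across the 77 loci, mean RPKM and the percent of A had a Pearson r of 0.61 and a Spearman rho of 0.50, a description over loci that share libraries and, in part, transcripts. How mRNA was selected for these libraries is not given in the sources used here, and a part of base composition in the levels was not tested.

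Genes of the plastid ribosome made up most of the plastid signal. The 20 listed loci for ribosomal proteins held 4560 reads for WT-Mock, 3681 for WT-NAA, 3619 for *arf7*-Mock and 2647 for *arf7*-NAA. Within the *rpl23* unit, *rpl16* (ATCG00790, chrC:81189-82652), which codes for a protein of the large subunit, was at 338 RPKM for WT-Mock, 314 for WT-NAA, 269 for *arf7*-Mock and 196 for *arf7*-NAA, the highest level of any plastid locus in each library. *rpl14*, also of the large subunit, followed at 211, 174, 196 and 133 RPKM, and *rps3*, of the small subunit, at 186, 144, 163 and 129 RPKM, in the same order of libraries. In each of these the lowest library was *arf7*-NAA. All 9 listed loci of this unit were covered over at least 90% of their length in every library.

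Levels of the polymerase genes differed between their transcription units. *rpoA* (ATCG00740), for the alpha subunit, is the last gene of the *rpl23* unit and had 555, 443, 475 and 317 reads in WT-Mock, WT-NAA, *arf7*-Mock and lastly *arf7*-NAA. *rpoB*, *rpoC1* and *rpoC2*, for the beta subunits, form a unit of their own and together had 72, 65, 49 and 105 reads in the same order, although they are longer. Per kilobase, *rpoB* was at 1.72, 1.42, 0.859 and 2.08 RPKM, far under *rpoA* in every library, and was highest in *arf7*-NAA, where *rpoA* was lowest.

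*ycf1* (ATCG01130, chrC:123884-129244), a long gene whose product belongs to the protein import machinery of the inner envelope, had the most reads of any plastid locus. Its reads were 1590 for WT-Mock, 1045 for WT-NAA, 1137 for *arf7*-Mock and 892 for *arf7*-NAA, or 39.2, 26.3, 29.3 and 23.7 RPKM. *ndhH* (ATCG01110), upstream of *ndhA* in the same stretch and coding for a subunit of the NDH complex, which takes part in cyclic electron flow, had 275, 197, 200 and 140 reads. *atpB* (ATCG00480), for the beta subunit of the ATP synthase, had 439, 426, 351 and 306 reads. *ycf1* and *ndhH* had the most reads in WT-Mock and the fewest in *arf7*-NAA, and so did *atpB*.

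The other members of these complexes were mixed in level. The 10 NDH loci summed to 490, 357, 376 and 274 reads in the same library order, and 3 of the remaining members, *ndhK*, *ndhD* and *ndhF*, had at most 31 reads in a library. NAA against Mock was at a log2 ratio of -0.43 (-0.63 to -0.23) for the NDH sum in WT and -0.42 (-0.65 to -0.19) in *arf7*. The 6 ATP synthase loci summed to 584, 578, 491 and 410 reads. *atpE*, for the epsilon subunit and in one unit with *atpB*, had 118, 131, 111 and 71 reads, so it was low only in *arf7*-NAA among these libraries, with a log2 ratio of -0.81 against WT-NAA. By contrast *atpA*, for the alpha subunit and in another unit, had 8, 6, 5 and 14 reads.

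Transcripts for photosynthesis were few. The 28 loci for both photosystems, the cytochrome b6f complex and Rubisco held 209 reads for WT-Mock, 209 for WT-NAA, 184 for *arf7*-Mock and 235 for *arf7*-NAA, or 1.69, 1.72, 1.56 and 2.04 RPKM over the set, compared with 97.4 RPKM or more for the *rpl23* unit. *psbA* (ATCG00020), for the D1 protein of photosystem II, had 17, 19, 16 and 20 reads, or 2.08 to 2.68 RPKM. *rbcL* (ATCG00490), for the large subunit of Rubisco, had 20, 16, 17 and 19 reads. The member of photosystem II with the most reads was *psbC*, for the antenna protein CP43, with 34, 26, 27 and 34 reads, and of the cytochrome b6f complex *petD*, for its subunit IV, with 16, 27, 18 and 15 reads. The 5 loci of that complex summed to 33, 53, 36 and 32 reads, most in WT-NAA, with a log2 ratio of 0.71 (0.06 to 1.39) in WT-NAA VS WT-Mock. The 15 loci of photosystem II summed to 112, 103, 98 and 106, nearly the same number in each library. No difference in *psbA*, *rbcL*, *psbC* or *petD* passed the test, with p-values from 0.0935 to 1 over the 4 comparisons (exact binomial test, two-sided). At this depth the intervals were wide, -0.83 to 1.22 on the log2 scale for *psbA* in WT-NAA VS WT-Mock. Among the remaining genes, *clpP*, for the proteolytic subunit of the Clp protease, had 42, 34, 28 and 36 reads.

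**Figure D1:**
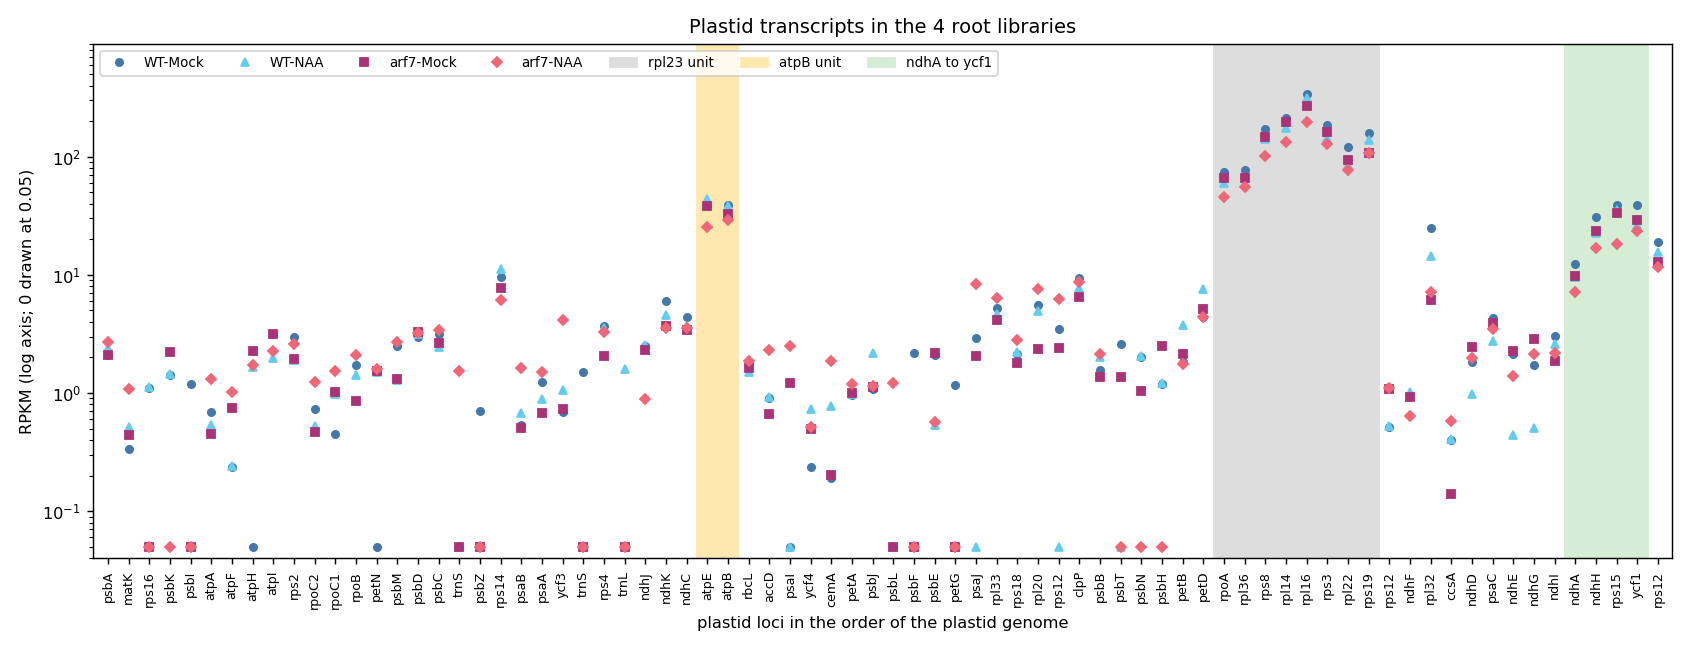
RPKM (log axis) of plastid loci in the order of the plastid genome, 1 symbol per library, with loci at 0 reads drawn at 0.05 and the loci of 3 stretches shaded. The *rpl23* unit lay between 61.6 and 279 mean RPKM, while the 62 loci outside the shaded stretches were at a median of 1.40.

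The plastid total was lower with NAA in each genotype, and lower in *arf7* than in WT with each treatment. Plastid loci took 1073 RPM for WT-Mock, 868 for WT-NAA, 881 for *arf7*-Mock and 707 for *arf7*-NAA. WT-NAA VS WT-Mock was 0.809-fold (exact 95% interval 0.783 to 0.836, counting error only, here and throughout) and *arf7*-NAA VS *arf7*-Mock was 0.802-fold (0.772 to 0.832). The ratio of the mutant to WT was 0.822 (0.795 to 0.849) without NAA and 0.814 (0.785 to 0.845) with it. The NAA response of the plastid total on the log2 scale differed between WT and *arf7* by 0.01 (95% interval -0.06 to 0.08). The green tissue sum was lower in WT-NAA (146 RPM) and in *arf7*-Mock (67.4 RPM) than in WT-Mock (205 RPM), as was the plastid total. In *arf7*-NAA, where the plastid total was lowest, the green tissue sum was highest, though not every marker was. The part of green tissue in the plastid total was not tested. In whole-root RNA, fewer plastids or plastid-rich cells and less RNA per plastid cannot be told apart.

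The *rpl23* unit and *ycf1* held most of the plastid reads. The 9 loci of the unit summed to 4880 reads for WT-Mock, 3928 for WT-NAA, 3942 for *arf7*-Mock and 2820 for *arf7*-NAA. NAA against Mock was 0.822-fold (0.788 to 0.857) in WT and 0.736-fold (0.701 to 0.773) in *arf7*, a difference between the responses of 0.16 on the log2 scale (95% interval 0.07 to 0.25). Without the unit and *ycf1*, the other plastid loci summed to 218 RPM for WT-Mock, 197 for WT-NAA, 179 for *arf7*-Mock and 178 for *arf7*-NAA. For these, NAA against Mock was 0.905-fold (0.843 to 0.971) in WT and 0.997-fold (0.922 to 1.08) in *arf7*. The ratio of *arf7* to WT for the same loci was 0.821 (0.763 to 0.883) without NAA, near that of the plastid total. With NAA it was 0.905 (0.838 to 0.976).

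**Figure D2:**
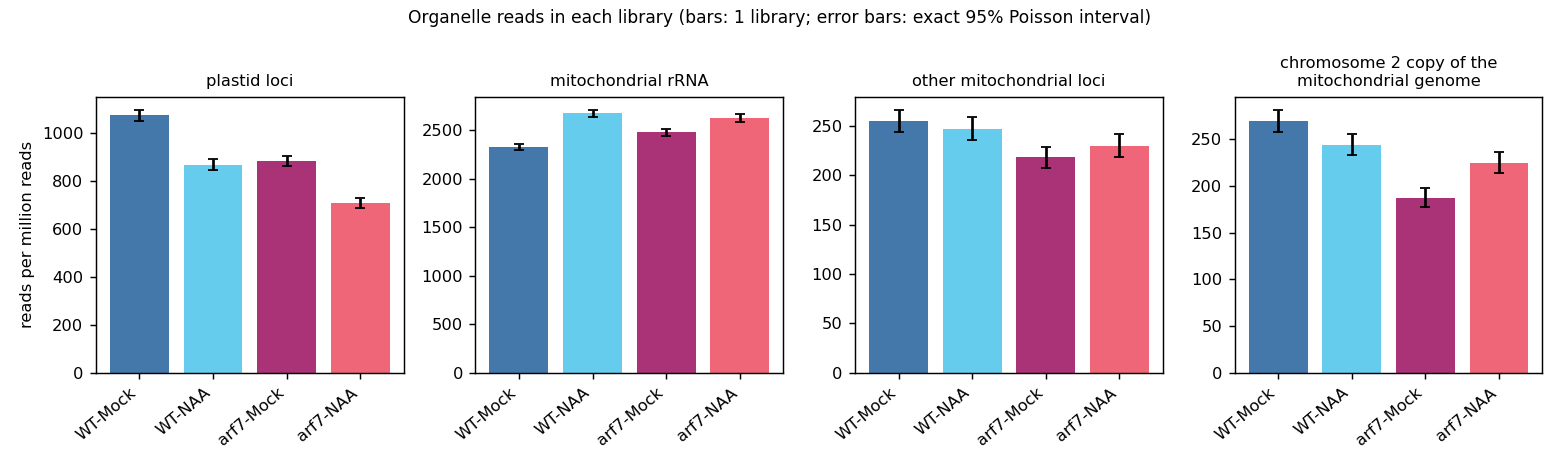
RPM (bars from 0, 1 library each, with exact 95% Poisson intervals) for plastid loci, mitochondrial rRNA, other mitochondrial loci and nuclear loci in the chromosome 2 copy of the mitochondrial genome. The plastid bars stand at 1073, 868, 881 and 707, highest in WT-Mock and lowest in *arf7*-NAA, an order that mitochondrial rRNA did not share.

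The question of which genes answer to auxin and to ARF7 was put to each plastid locus, with a locus called where P was under 0.0001 and the log2 ratio 1 or more up or down, the thresholds of the study. In WT-NAA VS WT-Mock, 0 of 74 plastid loci tested were called, where 1.09% of all loci tested were called. In *arf7*-NAA VS *arf7*-Mock it was 0 of 70 (background 0.776%), in *arf7*-Mock VS WT-Mock 0 of 74 (background 1.04%) and in *arf7*-NAA VS WT-NAA 0 of 71 (background 1.4%). With edgeR's exact test at assumed coefficients of variation of 0.1, 0.2 or 0.4 the count was also 0 in each comparison. That test adds variance to counting error at the same thresholds. A count of 0 could hardly change, so it gives no further support. At an unadjusted p under 0.05, 8, 20, 10 and 17 plastid loci passed in the same order of comparisons, or 10.8%, 28.6%, 13.5% and 23.9% of those tested. Of all loci tested, 19.8%, 17.8%, 22.0% and 20.5% passed, so the plastid share was under that of all loci in both comparisons with WT-Mock and over it in both comparisons with *arf7*-NAA. The differences of the abundant plastid loci had short intervals but lay under the 2-fold limit.

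In WT-NAA VS WT-Mock, 3 plastid loci had P under 0.0001, all lower, which is 4.05% of those tested, compared with 6.55% of all loci. *ycf1* had a log2 ratio of -0.58 (95% interval -0.69 to -0.46), *rpl22*, for a protein of the large subunit, of -0.50, and *rps3* of -0.38 (-0.52 to -0.23). *rpl16*, the gene with the highest level, was at -0.11 (-0.23 to 0.02), and *atpB* at -0.01 (-0.21 to 0.18). The median over the 41 plastid loci with at least 10 reads in either library was -0.28, compared with -0.02 over all loci with that many reads.

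With NAA against Mock in *arf7*, 7 plastid loci had P under 0.0001 by the exact binomial test, all lower and all in the *rpl23* unit or *ycf1*, which is 10% of those tested, compared with 4.58% of all loci. *rpl16* went from 794 to 561 reads, a log2 ratio of -0.46 (-0.62 to -0.30). *rpl14* was at -0.56 (-0.76 to -0.36). *ycf1* was at -0.31 (-0.44 to -0.18), a smaller ratio than in WT: the response in WT minus that in *arf7* was -0.27 for *ycf1* (95% interval -0.44 to -0.10) and, in the opposite direction, 0.35 for *rpl16* (0.15 to 0.55).

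A second set of plastid loci had more reads in *arf7*-NAA than in *arf7*-Mock. The 7 loci for photosystem I held 44 reads for WT-Mock, 37 for WT-NAA, 33 for *arf7*-Mock and 78 for *arf7*-NAA, and the log2 ratio of the sums was 1.28 (0.68 to 1.92) in *arf7*-NAA VS *arf7*-Mock and -0.22 (-0.89 to 0.44) in WT-NAA VS WT-Mock. Of these *psaB*, for a core protein of the reaction centre, went from 8 to 25 reads (log2 ratio 1.69, exact binomial p = 0.00263), and its partner *psaA* from 11 to 24 (1.17, p = 0.0271). The *rpoB* unit went from 49 to 105 reads, a log2 ratio of 1.14 (0.64 to 1.66), and *accD*, for a subunit of the acetyl-CoA carboxylase of fatty acid synthesis, from 7 to 24 (1.82, exact binomial p = 0.00187). None of the loci in these groups passed P under 0.0001, the closest being *rpoB* with 20 and 47 reads (1.27, p = 0.000832, exact binomial test). *psaA*, *psaB* and *accD* were named after their values were seen. In this comparison the green tissue sum went from 67.4 to 243 RPM. Of the 20 markers, 19 had reads and 9 were called higher, where 0.776% of all loci tested were called in either direction. The part of green tissue in these plastid values was not tested.

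Between genotypes without NAA, the 41 plastid loci with at least 10 reads in either library had a median log2 ratio of -0.27, compared with 0.01 over all loci with that many reads. In *arf7*-Mock VS WT-Mock, *ycf1* was at -0.42 (-0.53 to -0.31), *rpl16* at -0.33 (-0.46 to -0.19) and *rps19*, for a small subunit protein and with 336 against 216 reads, at -0.57, the 3 loci with P under 0.0001 by the exact binomial test (4.05% of those tested, compared with 7.03% of all loci). In the same comparison the green tissue sum went from 205 to 67.4 RPM, and the median log2 ratio of the markers was -1.26. Of the 20 markers, 19 had reads and 7 were called lower, where 1.04% of all loci tested were called in either direction. The part of green tissue in the plastid values was not tested. *rpl32* had 30 reads for WT-Mock, 17 for WT-NAA, 7 for *arf7*-Mock and 8 for *arf7*-NAA, the largest plastid ratio with p under 0.001 (-2.03, 95% interval -3.46 to -0.82, exact binomial p = 0.000218), but was not called. It was named after its values were seen. In *arf7*-NAA VS WT-NAA, *rpl16* had 561 against 949 reads (-0.68, -0.83 to -0.53) and *atpB* 306 against 426 (-0.40, -0.62 to -0.18), and the median over the 44 loci with at least 10 reads in either library was -0.14.

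**Figure D3:**
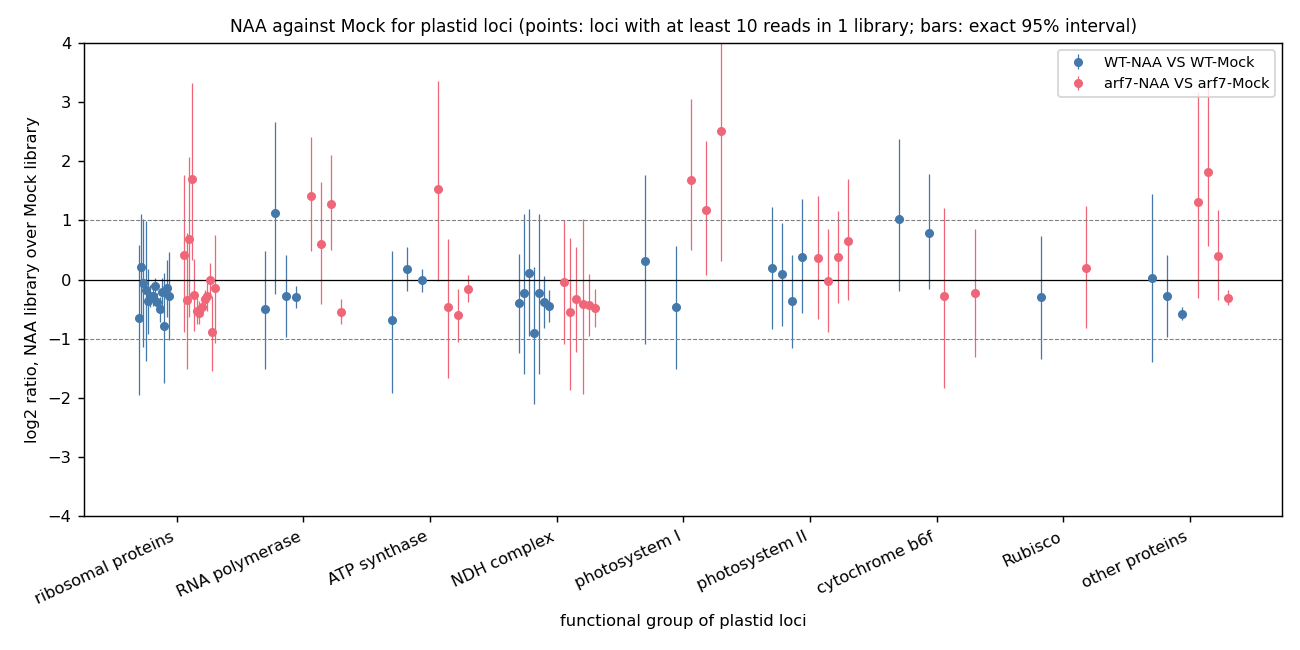
Log2 ratio of the NAA library to the Mock library for plastid loci with at least 10 reads in either library, by functional group, with exact 95% intervals; blue for WT, red for *arf7*, dashed lines at 1 and -1. The abundant ribosomal protein loci have short bars just under 0, while photosystem I loci in *arf7* stand above 1 with wide bars.

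The pair of NAA responses, which share no library, could be set side by side for the 32 plastid loci with at least 10 reads in every library. Their log2 ratios had a Pearson r of -0.05 and a Spearman rho of -0.04 over these loci, which is a description since loci of a unit share transcripts. The 32 differences between the responses reached a p under 0.05 in 8 loci, and none passed P under 0.0001 with a difference of at least 1. These differences were computed for organelle loci only. Without a share over all loci, whether that count is high or low cannot be told. The largest was that of *rpoC2*, with 23, 16, 14 and 36 reads and a difference of -1.90 (95% interval -3.18 to -0.62).

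Unique reads were few on most mitochondrial genes whose sequence also occurs in the nucleus. *Arabidopsis* Col-0 carries a large copy of the mitochondrial genome on chromosome 2, and of all 50-base words of the reference mitochondrial genome 70.6% were also in the nuclear genome. Of the 22 mitochondrial genes that could be matched to the reference by symbol, 11 shared under 50% of their words with the nucleus and had a median of 6.49 mean RPKM, and 11 shared more and had a median of 0.659. All 3 rRNA genes were among those that shared less. The words were those of the reference gene, whose length can differ from that of the counted transcript. *atp9* had a mean of 7.44 RPKM, although all words of its reference gene of 225 bases were in the nucleus. Its counted transcript is 504 bases long, and sharing in the rest of it was not assessed. The mitochondrial assembly in the reference differs from that of the deposited files, so its coordinates were not used. Nuclear loci with at least 90% of their words shared, 73 in number, took 270 RPM for WT-Mock, 244 for WT-NAA, 187 for *arf7*-Mock and 225 for *arf7*-NAA. Reads over shared sequence have no unique assignment, so the levels of genes with shared words are uncertain. Of the reference mitochondrial genes, *cob*, *nad3*, *nad6*, *atp8*, *ccmC*, *rpl5*, *rps4*, *rps7* and *rps12* had all of their words in the nucleus. None of these was listed in the libraries, so complex III, whose gene is *cob*, has no value here. The sums below for complex I, the ATP synthase and the protein genes lack these members.

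**Figure D4:**
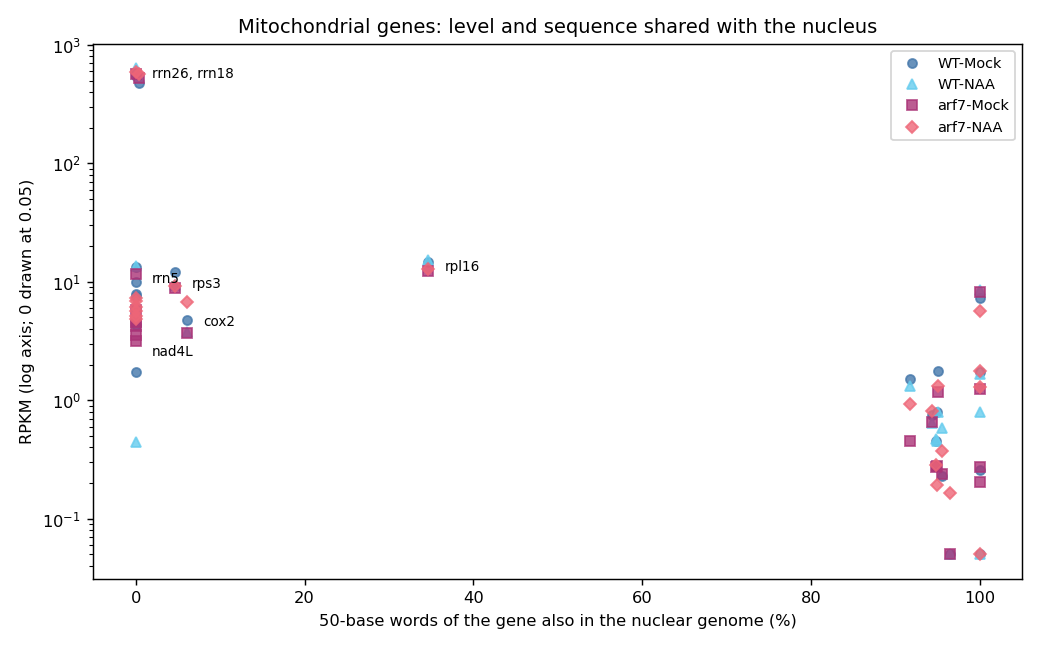
RPKM (log axis, 0 drawn at 0.05) of 22 mitochondrial genes against the percent of their 50-base words found in the nuclear genome, 1 symbol per library. The rRNA genes *rrn26* and *rrn18* stand above 400 RPKM at the left edge, and most genes at the right edge are under 2 RPKM.

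Mitochondrial reads were mostly rRNA. *rrn26* (ATMG00020), the large rRNA, had 10648 reads for WT-Mock, 12074 for WT-NAA, 10585 for *arf7*-Mock and 10699 for *arf7*-NAA, and *rrn18* (ATMG01390), the small rRNA, had 6976, 7757, 7340 and 7754. All mitochondrial loci together took 2584, 2923, 2699 and 2857 RPM. The next most abundant locus was *orf107A* (ATMG00030), an open reading frame with 940, 998, 931 and 850 reads, which lies 502 bases from *rrn26* in the files. The files give *rrn26* a length of 2568 bases and the reference 3169, and whether reads of *orf107A* belong to the rRNA was not tested.

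Mitochondrial rRNA was higher with NAA, by a small factor. The NAA ratio of the 3 rRNA loci was 1.15 (1.13 to 1.17) in WT and 1.06 (1.04 to 1.08) in *arf7*, and the responses differed by 0.12 on the log2 scale (95% interval 0.08 to 0.16). In the same libraries nuclear rRNA, mostly of the locus AT3G41768, took 609, 708, 436 and 549 RPM. It was also higher with NAA in each genotype, but its responses differed in the opposite direction, by -0.11 (-0.20 to -0.03). In *arf7*-Mock VS WT-Mock nuclear rRNA was 0.717-fold (0.685 to 0.750), whereas mitochondrial rRNA was 1.06-fold (1.04 to 1.09). The part of library make-up in the rRNA values was not tested. Without rRNA, the mitochondrial loci summed to 1929 reads for WT-Mock, 1833 for WT-NAA, 1577 for *arf7*-Mock and 1617 for *arf7*-NAA. For these NAA against Mock was 0.970-fold (0.909 to 1.03) in WT and 1.06-fold (0.984 to 1.13) in *arf7*, and *arf7*-Mock VS WT-Mock was 0.856-fold (0.800 to 0.915). The chromosome 2 copy loci had a similar pattern, 0.694-fold (0.648 to 0.744) in *arf7*-Mock VS WT-Mock, and reads of the copy and of the mitochondrion cannot be told apart over identical sequence.

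Reads for complexes I and IV of the respiratory chain were fewest in *arf7*-Mock. The 3 loci of complex IV, cytochrome c oxidase, held 138 reads for WT-Mock, 116 for WT-NAA, 75 for *arf7*-Mock and 136 for *arf7*-NAA, and the 9 loci of complex I, NADH dehydrogenase, held 102, 78, 61 and 85. The 26 protein genes other than open reading frames summed to 636, 534, 422 and 523 reads. Their log2 ratio was -0.53 (-0.71 to -0.35) in *arf7*-Mock VS WT-Mock. It was -0.22 (-0.39 to -0.05) in WT-NAA VS WT-Mock and, in the opposite direction, 0.35 (0.16 to 0.54) in *arf7*-NAA VS *arf7*-Mock, and 0.05 (-0.13 to 0.22) in *arf7*-NAA VS WT-NAA. In the reference, *nad1*, *nad2*, *nad4*, *nad5* and *nad7* of complex I shared 94.4% (*nad2*) to 100% (*nad1*) of their words with the nucleus. The chromosome 2 copy loci were also lowest in *arf7*-Mock, at -0.53 (-0.63 to -0.43) against WT-Mock. The part of the nuclear copy in these sums was not tested. The 5 loci of the ATP synthase had 114, 116, 97 and 99 reads, a narrower range than that of complex IV. Among them the pair of loci annotated *atp6* had 42, 33, 21 and 30 reads at ATMG01170 and 22, 20, 19 and 12 at ATMG00410, values that are uncertain as reads could be split between paralogs. *matR*, for a maturase of intron splicing, had 7, 7, 4 and 4 reads, and *mttB*, for a membrane transport protein, 0, 0, 0 and 1.

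A single mitochondrial locus was called in any comparison. *cox1* (ATMG01360, mitochondrial positions 349830 to 351413 of the files, minus strand), for the catalytic subunit of cytochrome c oxidase, had 91 reads for WT-Mock, 76 for WT-NAA, 41 for *arf7*-Mock and 81 for *arf7*-NAA. The *arf7*-Mock library was the low one, and the other 3 had 76 to 91. *cox1* fell in *arf7*-Mock VS WT-Mock with a log2 ratio of -1.08 (-1.65 to -0.54, p = 3.78e-05, exact binomial test), 1 of 64 mitochondrial loci tested, where 1.04% of all loci were called. In *arf7*-NAA VS *arf7*-Mock it was at 1.02 (0.46 to 1.60, exact binomial p = 0.000181), which missed the threshold. None of its 50-base words was in the nuclear genome. The call was lost with edgeR's exact test at an assumed coefficient of variation of 0.1 (p = 0.00152), 0.2 (p = 0.0313) or 0.4 (p = 0.231).

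In the other comparisons 0 mitochondrial loci were called: 0 of 62 in WT-NAA VS WT-Mock, 0 of 64 in *arf7*-NAA VS *arf7*-Mock and 0 of 61 in *arf7*-NAA VS WT-NAA. At an unadjusted p under 0.05 there were 5, 6 and 7 in these and 10 in *arf7*-Mock VS WT-Mock. That is 8.06%, 9.38%, 11.5% and 15.6% of the mitochondrial loci tested, under the share of all loci in each comparison (19.8%, 17.8%, 20.5% and 22.0%). EdgeR's exact test called 0 in each, which its added variance made all but certain where the binomial count was 0. *ccmB*, for a transporter subunit of cytochrome c maturation and with no shared words, had 47, 24, 19 and 27 reads in WT-Mock, WT-NAA, *arf7*-Mock and lastly *arf7*-NAA (-1.24 in *arf7*-Mock VS WT-Mock, p = 0.00122). *cox2*, for a further core subunit of the oxidase, had 28, 22, 21 and 37 reads. *nad9*, for a subunit of complex I, had 34, 28, 19 and 28. The ribosomal protein genes *rps3* and *rpl16*, which overlap in the files, had 153, 116, 107 and 109 reads and 60, 61, 48 and 49 reads, and reads over their overlap cannot be assigned to one of them. Among open reading frames, *orf149* had 82, 89, 53 and 51 reads and *orf240A* 77, 64, 59 and 48, each lower in both *arf7* libraries than in both WT libraries. The 38 open reading frames together had 1293, 1299, 1155 and 1094 reads, most of them from *orf107A*, and their median level was 1.02 RPKM.

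The NAA responses of WT and *arf7* could be compared for 18 mitochondrial loci with at least 10 reads in every library. The response in WT minus that in *arf7* was -1.25 for *cox1* (95% interval -1.95 to -0.56) and -1.49 for *ccmB* (-2.59 to -0.38), and both genes had their lowest count in *arf7*-Mock. Of the 18 differences 5 had a p under 0.05, and none passed P under 0.0001 with a difference of at least 1 by the normal test on Poisson errors. Here too no share over all loci was computed, so whether that count is high or low cannot be told. The largest, at -1.50, was that of *orf111D*, with 28, 11, 10 and 11 reads.

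Nuclear genes that act on organelle transcription were described as a list. All 21 genes of the list (6 sigma factors, which direct the bacterial-type plastid polymerase to promoters, 3 phage-type polymerases and 12 proteins associated with the plastid polymerase) had reads. By the binomial test 0 of 21 were called in any of the 4 comparisons, where 1.09%, 0.776%, 1.04% and 1.4% of all loci tested were called. In so short a list a count of 0 is near those shares and says little of these genes. Their sum was 257 RPM for WT-Mock, 227 for WT-NAA, 243 for *arf7*-Mock and 257 for *arf7*-NAA. By comparison, the list had a median log2 ratio of -0.27 in WT-NAA VS WT-Mock, 0.06 in *arf7*-NAA VS *arf7*-Mock, 0.04 in *arf7*-Mock VS WT-Mock and, with NAA, 0.11, beside medians of 0.00, -0.01, 0.04 and 0.02 over all loci tested.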

How the data were processed

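The authors deposited, for each library, a count of reads assigned uniquely to each transcript model, its RPKM and the percent of the transcript covered. RPKM recomputed from these counts equalled the deposited RPKM. The aligner and the counting strand are not given in the sources used here, so overlapping or antisense genes cannot be told apart. Comparison tables with the authors' log2 ratios, p-values and false discovery rates, including 16 per-sample columns, were not used.

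Reads were summed over the models of a locus. Each ratio used the library totals of 7571027, 7416200, 7230317 and 7026529 reads, with 0 reads set to 3, which turns the sign of a ratio of 1 or 2 reads to 0. Loci were tested with an exact two-sided binomial test (SciPy 1.17.1) over all loci. A locus at 0 reads may have up to 0.396 to 0.427 RPM (reads scaled to library size), the level of 3 reads. Differences between NAA responses needed at least 10 reads in every library and used Poisson errors. Intervals cover counting error only, since each condition has 1 library. They treat reads as independent molecules, which PCR copies are not, so they may be too narrow. Alternatives used edgeR 4.0.16 and DESeq2 1.42.0 in R 4.3.3. The binomial and edgeR tests were tested on simulated data.

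Named genes were the 10 loci with the most reads in each organelle, called loci, the top locus of each functional group and recurring copies. *rpoB*, *rpoC2*, *psbA*, *atpA*, *atpE*, *clpP*, *ndhK*, *ndhD*, *ndhF*, *orf111D*, *atp9*, *cox2*, *psaA*, *psaB*, *accD* and *rpl32* were named after seeing their values. The members, lists and alternatives were chosen with earlier results of these data known. Sums, counts and medians are over all members, but 1 plastid locus is not reported here by itself or drawn.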

Additional observations from a re-analysis of the deposited data

How the results depend on the processing

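No paired analysis was possible because each condition has 1 library, and for the same reason no library could be left out. Of the values recomputed under an alternative, 149 were unchanged, 15 medians moved, and among totals and counts 2 reversed in sign, 6 were weaker and 4 stronger. Unchanged means the same direction and side of the threshold for a total and the same number for a count. For a median it means a shift under the counting error of the organelle's summed reads. The plastid total was unchanged, but its alternatives altered few of its reads or the library total little. TMM and DESeq2 scaling were not run on it. A log2 limit of 0.5 in place of 1 gave 2 plastid calls for NAA against Mock in WT and 4 in *arf7*, and 1 for *arf7* against WT with either treatment, where 3.73% and 1.97%, and then 3.27% without and 3.29% with NAA, of all loci tested passed that limit. Without rRNA and tRNA loci the log2 ratio of mitochondrial reads was -0.044 (-0.137 to 0.049) in WT-NAA VS WT-Mock and -0.22 (-0.32 to -0.13) in *arf7*-Mock VS WT-Mock. Each had the sign opposite to that of the total, but the interval in WT-NAA VS WT-Mock held both signs. For NAA against Mock in *arf7* the ratio was 0.077, no longer past the threshold, since rRNA is most of the total. Over the 11 matched mitochondrial genes with under 50% of their words in the nucleus, the log2 ratio was -0.024 (-0.052 to 0.005) in *arf7*-NAA VS WT-NAA. That set includes the 3 rRNA loci, which held 17636 of its 18072 reads in WT-Mock, so its ratio is mostly that of rRNA. It leaves out the open reading frames and other loci without a match, whose sharing was not assessed. The *cox1* call, and with it the count of mitochondrial calls in *arf7*-Mock VS WT-Mock, went to 0 with a pseudocount of 1 RPM and with edgeR's exact test at 0.1, 0.2 or 0.4. The cause was not tested.

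Medians over loci moved with low counts. Those over all loci tested include 4 to 8 plastid and 4 to 11 mitochondrial loci with 1 or 2 reads against 0, whose sign the floor of 3 reads turns. Over all plastid loci tested the medians were -0.082 and 0.041 for NAA against Mock in WT and in *arf7*, and -0.20 and 0.078 for *arf7* against WT without and with NAA. With at least 10 reads in 1 library, the plastid median for NAA against Mock was -0.28 in WT and -0.15 in *arf7*, and for *arf7* against WT -0.27 without and -0.14 with NAA. The mitochondrial medians for NAA against Mock were then -0.078 in WT and 0.34 in *arf7*. With a pseudocount of 1 RPM, the plastid medians were -0.15 for NAA against Mock in WT and 0.015 for *arf7* against WT with NAA. The mitochondrial medians were then -0.10 and 0.085 for NAA against Mock in WT and in *arf7*, and -0.23 and -0.011 for *arf7* against WT without and with NAA. Without rRNA and tRNA loci, the mitochondrial medians were -0.23 and 0.30 for NAA against Mock in WT and in *arf7*, and -0.48 for *arf7* against WT without NAA.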
